A study of Mus musculus with 18 samples.

Results

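The Cyp2 family of cytochrome P450 genes was described in mouse liver by RNA-Seq. Its members were the genes whose short name begins with Cyp2, a subfamily letter and a number, without names that end in -ps, and with a Cuffdiff status of OK in all 6 groups. The rule found 47 of the 37303 genes listed, in 13 subfamilies, and 32 of them exceeded an FPKM of 3 in at least 1 group. The rule used names and status only, and no expression difference entered it. Each group held livers from 3 mice on the C57BL/6J background. WT mice, Gcn2-/- mice and Atf4-/- mice received 8 daily intraperitoneal injections of either native asparaginase of E. coli (ASNase), at 3 IU per g of body weight, or PBS, which gave the groups WT PBS, WT ASNase, Gcn2-/- PBS, Gcn2-/- ASNase, Atf4-/- PBS and Atf4-/- ASNase. Both deletions were homozygous and present in all cells of the body, so the data do not separate a loss in hepatocytes from a loss elsewhere. By the sample labels livers were collected 7.5 h after the last injection and ages were 8 to 16 weeks, while the growth protocol gives ages up to 12 weeks. The labels list 1 male of 3 mice in WT PBS and in both Gcn2-/- groups, and 2 males of 3 in WT ASNase and in both Atf4-/- groups.

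The deposited values were FPKM, a read density scaled for transcript length and library size, estimated by Cuffdiff once per group from its 3 libraries together. The table used here holds no values of single mice, so there is no SD, no p-value and no check over mice for any difference. The error of a value is its Cuffdiff interval, given here as lower and upper bound. A gene was called higher or lower when both values were above 0 with status OK, either exceeded an FPKM of 3, the difference in log2(FPKM + 0.1) exceeded 1.5 and the intervals did not overlap. The pseudocount of 0.1 understates the change of genes near 0. The authors tested these libraries by Cuffdiff q values, which were not used here, so a gene not called here may pass their test. The FPKM of the deleted genes did not check the genotypes. Eif2ak4, which encodes GCN2, was at 3.04 FPKM in WT PBS and 2.31 in Gcn2-/- PBS. Atf4 was at 50.4 in WT PBS and 32.3 in Atf4-/- PBS. These are values for whole genes that do not resolve the deleted part. The authors showed both deletions by read density along the genes in this RNA-Seq, and also assessed Atf4 by RT-qPCR. The hepatocyte marker Hnf4a was at 145 to 213 FPKM in the 6 groups. The summed FPKM of the 8 hepatocyte markers with an estimate in all groups, which leave out Alb, was 52128 under PBS and 40262 after ASNase in WT, 57723 and 23814 in Gcn2-/- and 43242 and 19743 in Atf4-/- livers. The sum was lower after ASNase beside that of the Cyp2 genes, with median differences on the log2 scale of -0.34, -0.99 and -0.80 in WT, Gcn2-/- and Atf4-/- livers, and their part in the Cyp2 values was not tested. One of them, Fabp1, was at 7629 FPKM in Atf4-/- PBS and 46.6 in Atf4-/- ASNase. Markers of other tissues differed between groups. The summed FPKM of 10 skeletal muscle markers was 783 and 1119 in the WT groups against 5.94 to 123 in the knockout groups, that of 7 lung epithelial markers was 136 in WT PBS and 1.19 to 3.19 elsewhere, and that of 6 pancreatic acinar markers was 48.1 in WT ASNase, 293 in Atf4-/- ASNase and at most 2.48 in the others. Intestinal and kidney tubule markers summed to at most 18.0 and 1.21 FPKM. The part of these tissues in the Cyp2 values was not tested.

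Cytochrome P450 enzymes are heme proteins of the endoplasmic reticulum that insert an oxygen atom into their substrate with electrons from NADPH, passed on by P450 reductase (Por) and in part by cytochrome b5. The Cyp2 family is the largest P450 family in mice. Many of its members oxidise drugs and other foreign compounds in the liver, others act on steroids, fatty acids, bile acids, retinoids or vitamin D, and several are expressed differently in male and female liver. ASNase is an enzyme that removes asparagine and some glutamine from the blood. GCN2 is a kinase that senses scarce amino acids through uncharged tRNA, and ATF4 is a transcription factor that is translated more when GCN2 phosphorylates eIF2.

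Most members lie in 4 gene clusters that arose by repeated duplication. On mm10 the 15 Cyp2c genes lie on chromosome 19, the 8 Cyp2d genes on chromosome 15 and the 7 Cyp2j genes on chromosome 4, and the Cyp2a, Cyp2b, Cyp2f, Cyp2g, Cyp2s and Cyp2t genes share one region of chromosome 7, which also carries Cyp2e1 and Cyp2r1 at a distance. In WT livers under PBS the family summed to 10999 FPKM, 1.52% of the FPKM of all genes with an estimate, and Cyp2e1 alone made up 35.7% of the family. The next genes in level per length were Cyp2a5 at 842, Cyp2c29 at 768, Cyp2c50 at 541, Cyp2f2 at 526 and Cyp2d26 at 503 FPKM. The interval of Cyp2e1 (183 to 7671) overlapped those of all 5, so the order of neighbouring genes was not resolved. The other end of the expressed range held Cyp2j9 at 3.25, Cyp2u1 at 3.05 and Cyp2c39 at 2.68 FPKM. The 15 members that never exceeded an FPKM of 3 were Cyp2b19, Cyp2b23, Cyp2c65, Cyp2c66, Cyp2d11, Cyp2d12, Cyp2d34, Cyp2g1, Cyp2j8, Cyp2j11, Cyp2j12, Cyp2j13, Cyp2s1, Cyp2t4 and Cyp2w1, with a highest value of 2.57 FPKM, for Cyp2g1 in Atf4-/- PBS.

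After ASNase the sum of the family was close to its PBS value in WT livers and lower in both knockouts. Its summed FPKM was 10417 after ASNase in WT, 94.7% of the PBS value, 5043 in Gcn2-/-, 51.7% of the PBS value, and 3568 in Atf4-/-, 32.4% of the PBS value. Its share of the FPKM of all genes with an estimate went from 1.52% to 1.60% in WT livers. In Gcn2-/- livers the share went from 1.19% to 0.720%, and in Atf4-/- livers from 1.65% to 0.441%. For 45 genes, Alb among them, an estimate was missing in some group, so the genes behind these shares can differ between groups. The summed FPKM values of the family carry no error of their own and Cyp2e1 made up 32.2% to 41.1% of them. In bulk liver RNA, fewer hepatocytes and less Cyp2 RNA per hepatocyte cannot be told apart.

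In WT livers, ASNase moved no Cyp2 gene past the rule. Of the 32 members with enough expression to be compared, 0 were called, against 0.881% of all 9084 genes compared. This count lies near that share. The median difference over the 32 members was -0.19 on the log2 scale beside 0.00 over all genes above an FPKM of 3. Cyp2c69 and Cyp2b13 exceeded the fold limit with intervals that overlapped, 2 of 32 members beside 1.48% of all genes. Cyp2c69 was at 220.2 FPKM (85.9 to 354) under PBS and 53.1 (16.7 to 89.4) after ASNase. Cyp2b13 was at 73.7 (31.2 to 116) and 20.3 (4.81 to 35.7). Both are known as genes of female liver, and in WT the ASNase group had 2 males of 3 against 1 of 3 under PBS, so that treatment and sex cannot be told apart for them. The 25 eligible members outside the sex-biased lists also gave 0 calls, again near the share of all genes.

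In Gcn2-/- livers, where both groups had 1 male of 3, Cyp2c69, Cyp2c55, Cyp2a4 and Cyp2c44 fell after ASNase. These 4 of 32 members compare with 2.13% of 9218 genes called lower and 3.69% called in either direction, and 0 members were called higher. The median difference over the 32 members was -1.01, beside 0.012 over all genes, and 27 of the 32 had a value below 0. With the 3 members whose intervals overlapped (Cyp2a5, Cyp2c40 and Cyp2f2), 7 of 32 passed the fold limit alone, beside 6.58% of all genes.

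In Atf4-/- livers, where both groups had 2 males of 3, 11 of 31 members fell (Cyp2b13, Cyp2c38, Cyp2c44, Cyp2c50, Cyp2c54, Cyp2c67, Cyp2c68, Cyp2c69, Cyp2d40, Cyp2f2 and Cyp2u1) and 2 rose (Cyp2a22 and Cyp2b10). Among all 9485 genes compared in this strain 7.37% were called, 4.63% lower and 2.74% higher. The median difference of the members was -1.78 beside 0.068 over all genes, and 29 of the 32 values were below 0. The fold limit alone was passed by 19 of 31 members, beside 12.2% of all genes. The 6 with overlapping intervals were Cyp2a4, Cyp2a5, Cyp2b9, Cyp2c40, Cyp2d9 and Cyp2e1. Members share sequence, so their calls are not independent of each other. Of the 17 eligible members with under 5% of their transcript in common with another gene, 5 were called in Atf4-/- livers (4 lower), and of 18 such members 2 were called in Gcn2-/- livers.

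**Figure D1:**
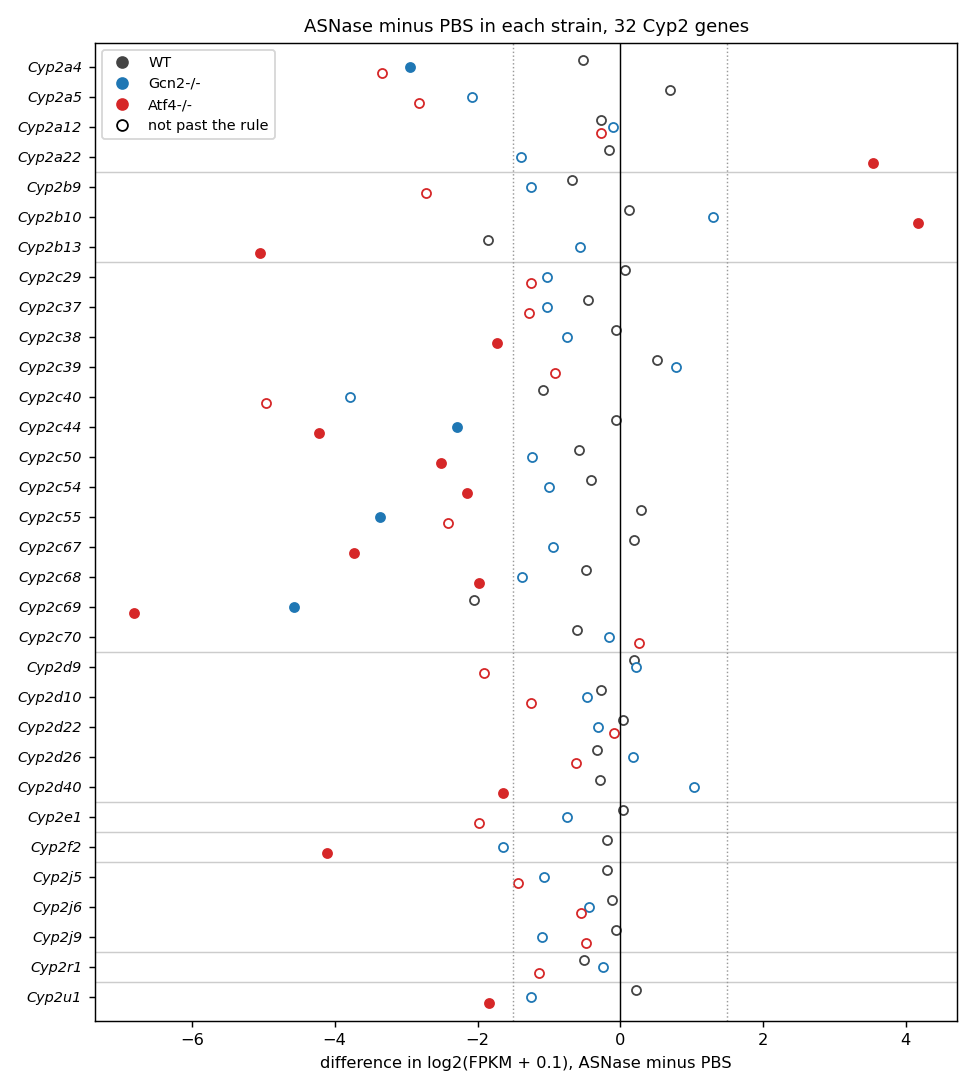
Difference in log2(FPKM + 0.1) between ASNase and PBS for the 32 Cyp2 genes with an FPKM over 3 in any group, grouped by subfamily (rows) and coloured by strain. Filled points passed the calling rule, open points did not, and dotted lines mark a difference of 1.5. No WT point is filled, 4 Gcn2-/- points and 11 Atf4-/- points are filled on the lower side, and 2 Atf4-/- points, Cyp2a22 and Cyp2b10, are filled on the higher side.

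The subfamilies differed in how much of their summed FPKM was left after ASNase. In Gcn2-/- livers the Cyp2d genes stood at 101% of their PBS sum, Cyp2b at 61.9%, Cyp2e at 59.7%, Cyp2j at 48.8%, Cyp2c at 41.7%, Cyp2f at 32.1% and Cyp2a at 31.6%. In Atf4-/- livers the same sums stood at 47.0% for Cyp2d, 42.0% for Cyp2b, 25.4% for Cyp2e, 39.3% for Cyp2j, 39.5% for Cyp2c, 5.76% for Cyp2f and 34.0% for Cyp2a. Among the subfamilies with a member over an FPKM of 3, Cyp2d had the widest gap in percentage between the knockouts, followed by Cyp2r (84.3% and 44.8%).

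**Figure D2:**
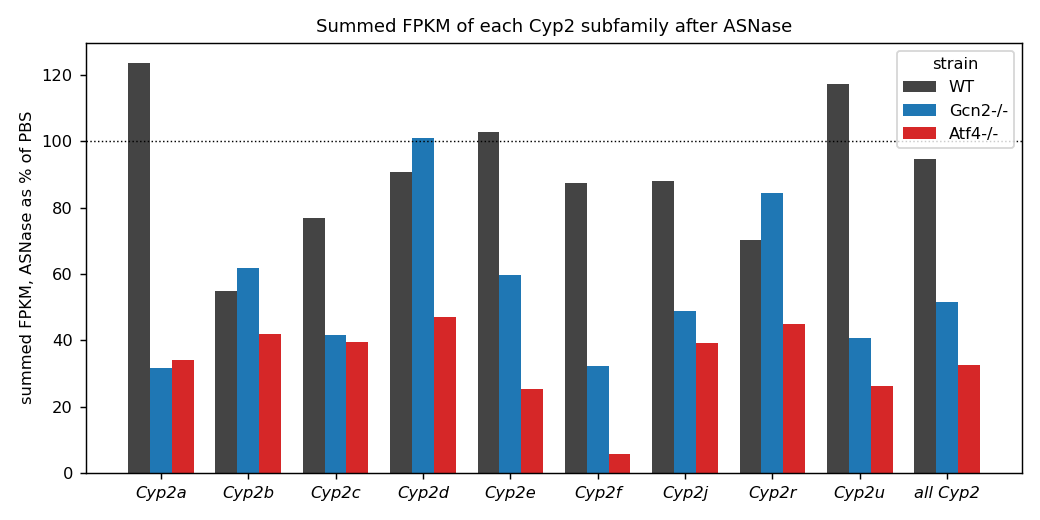
Summed FPKM of each Cyp2 subfamily after ASNase as a percentage of the sum under PBS in the same strain, for the 9 subfamilies with a member over an FPKM of 3. Bars have no error because each group has 1 pooled value per gene, and the dotted line marks no change. Cyp2f, which is Cyp2f2 alone, is lowest in Atf4-/- livers at 5.76%.

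Among the Cyp2c genes, the largest fall belonged to one of 4 near-identical neighbours on the minus strand of chromosome 19, Cyp2c67 (chr19:39608842-39649051), Cyp2c68 (chr19:39688834-39741054), Cyp2c40 (chr19:39767071-39812814) and Cyp2c69 (chr19:39842814-39886799). Cyp2c40 is known to hydroxylate arachidonic acid. The coding sequences of Cyp2c67 and Cyp2c69 were 97.7% identical, and the longest run without a difference between Cyp2c40 and Cyp2c69 was 282 bases, longer than the 100-base reads. Of the 100-base windows of the transcript, 44.1% in Cyp2c40, 36.3% in Cyp2c69, 23.7% in Cyp2c67 and 19.8% in Cyp2c68 also occurred in another gene, so that single-end reads from those windows cannot be assigned to 1 gene. The following 100 coding bases, the stretch within 1 exon where the 4 genes differ most, are shown because they hold the kind of differences on which the assignment rests. The 13 positions at which the genes are not all alike are in capitals, and coordinates are on GRCm38, minus strand.
Cyp2c40, chr19:39807523-39807622: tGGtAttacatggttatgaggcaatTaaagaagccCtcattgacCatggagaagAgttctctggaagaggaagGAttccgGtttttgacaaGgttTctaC
Cyp2c67, chr19:39643600-39643699: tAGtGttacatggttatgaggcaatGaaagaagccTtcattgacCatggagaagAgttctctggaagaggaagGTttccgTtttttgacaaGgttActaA
Cyp2c68, chr19:39739384-39739483: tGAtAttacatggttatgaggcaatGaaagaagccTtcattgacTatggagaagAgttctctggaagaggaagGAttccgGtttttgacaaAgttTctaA
Cyp2c69, chr19:39881454-39881553: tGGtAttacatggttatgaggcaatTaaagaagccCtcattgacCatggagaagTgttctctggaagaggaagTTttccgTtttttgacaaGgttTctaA

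Cyp2c69 was at 220.2 FPKM under PBS and 53.1 after ASNase in WT, 176 and 7.28 in Gcn2-/- and 153 and 1.26 in Atf4-/- livers. The Gcn2-/- intervals ran from 72.5 to 279 under PBS and from 3.37 to 11.2 after ASNase, and the Atf4-/- intervals from 5.50 to 299.6 and from 0.279 to 2.24. It fell in both, with a difference of -4.58 on the log2 scale in Gcn2-/- and -6.81 in Atf4-/- livers, the largest fall of any member in either strain. Cyp2c40 was at 275 FPKM under PBS and 129.8 after ASNase in WT, 271 and 19.6 in Gcn2-/- and 107 and 3.33 in Atf4-/- livers. Its values were lower after ASNase in all 3 strains, but its intervals reached to or near 0 (0 to 235 in Atf4-/- PBS, 0 to 7.60 in Atf4-/- ASNase), so it was not called. Cyp2c67 was at 123 FPKM under PBS and 141 after ASNase in WT, 131 and 67.9 in Gcn2-/- and 146 and 10.9 in Atf4-/- livers. It fell in Atf4-/- livers (-3.73 on the log2 scale, intervals 71.3 to 221 and 5.87 to 16.0) and was -0.95 in Gcn2-/- livers, not past the rule. Cyp2c68 fell in Atf4-/- livers from 137 (72.7 to 201) to 34.7 FPKM (18.1 to 51.4). Summed over the 4 genes, which depends less on how shared reads were split among them, the FPKM was 831 under PBS and 476 after ASNase in WT, 819 and 188 in Gcn2-/-, and 542 and 50.2 in Atf4-/- livers. With bounds added over the genes, the sum passed the rule in Atf4-/- livers (-3.43) and not in Gcn2-/- livers (-2.13), where the intervals 272 to 1365 and 91.0 to 284 overlapped.

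Cyp2c44 and Cyp2c55 had no 100-base window in common with another gene. Cyp2c44 (minus strand, chr19:44005022-44029208), which is known to epoxidise arachidonic acid, was at 207 FPKM under PBS and 198 after ASNase in WT, 233 and 47.4 in Gcn2-/- and 199 and 10.6 in Atf4-/- livers. The 4 values outside the knockout ASNase groups lay close together and their intervals all overlapped. After ASNase it fell in Gcn2-/- livers to an interval of 26.0 to 68.9 (-2.29 on the log2 scale) and in Atf4-/- livers to 5.97 to 15.1 (-4.23). Cyp2c55 (plus strand, chr19:39007019-39042693), a gene known to be induced through the receptors CAR and PXR, was at 8.52 FPKM under PBS and 10.5 after ASNase in WT, 5.72 and 0.463 in Gcn2-/- and 2.11 and 0.315 in Atf4-/- livers. It fell in Gcn2-/- livers (-3.37), with intervals 2.21 to 9.24 and 0.0612 to 0.866. In Atf4-/- livers both values were under an FPKM of 3, so it was not eligible there, although the intervals did not overlap.

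Cyp2c37, Cyp2c50 and Cyp2c54, which share over 90% of their coding sequence, were lower after ASNase in each knockout. Cyp2c50 was at 541 FPKM under PBS and 361 after ASNase in WT, 279 and 118 in Gcn2-/- and 301 and 52.8 in Atf4-/- livers, and it fell in Atf4-/- livers (-2.51, intervals 143 to 458 and 28.7 to 76.9). Cyp2c54 fell there from 173 to 38.8 (-2.15), and Cyp2c37 went from 241 to 99.5 (-1.27), short of the fold limit. Their sum fell from 714 to 191 FPKM (-1.90). Cyp2c29, a gene of pericentral hepatocytes that is inducible by phenobarbital, was at 768 FPKM under PBS and 804 after ASNase in WT, 406 and 200.3 in Gcn2-/- and 773 and 324 in Atf4-/- livers and was not called in any comparison. Cyp2c70, which makes the muricholic acids of mouse bile, was the Cyp2c gene with the highest value in Atf4-/- ASNase. It was at 262 FPKM under PBS and 172 after ASNase in WT, 293 and 262 in Gcn2-/- and 369 and 441 in Atf4-/- livers, and its intervals overlapped in every comparison.

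**Figure D3:**
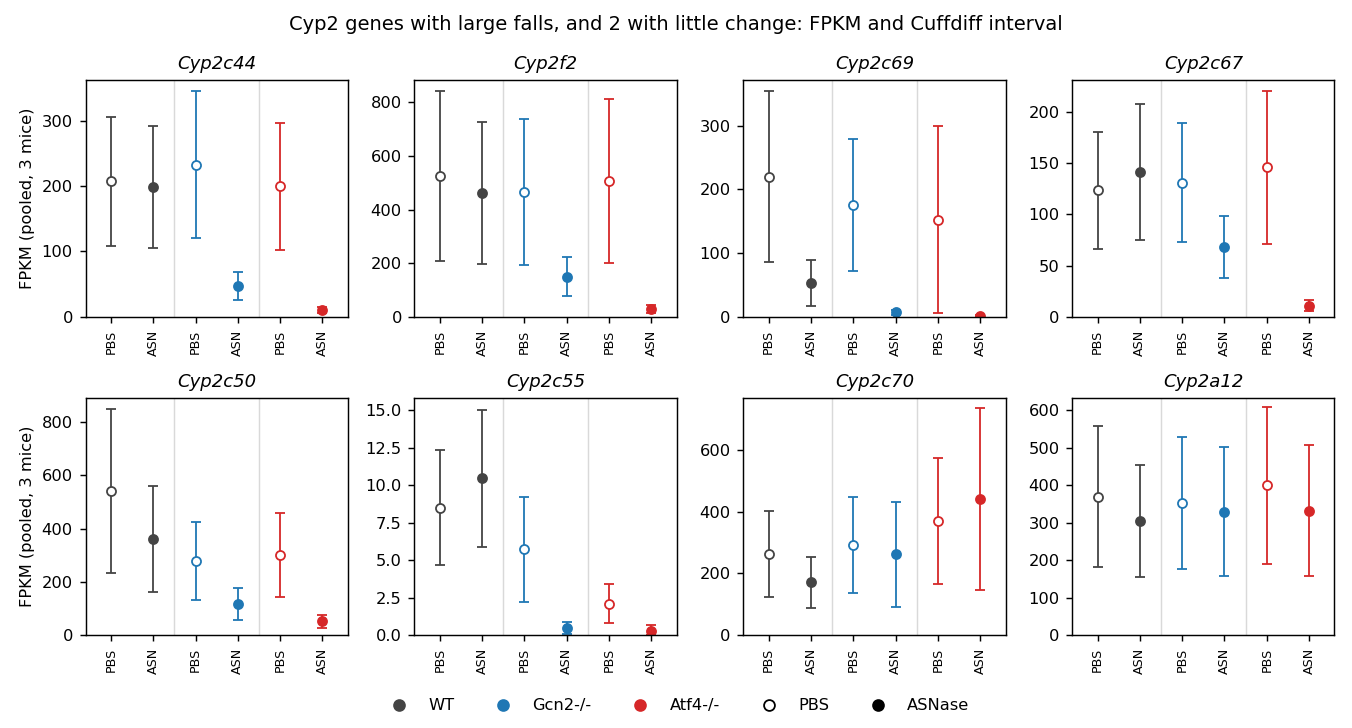
FPKM of 8 Cyp2 genes in the 6 groups, with open points for PBS and filled points for ASNase. Points are single values that Cuffdiff pooled from 3 mice and bars are its intervals. Cyp2c44, Cyp2f2, Cyp2c67 and Cyp2c50 are lowest in Atf4-/- ASNase, Cyp2c69 and Cyp2c55 are near 0 in both knockout ASNase groups, and the intervals of Cyp2c70 and Cyp2a12 overlap in all groups.

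Cyp2c38 and Cyp2c39 differed in their strain pattern although they are neighbours with 94.2% identical coding sequences. Cyp2c39 (plus strand, chr19:39510862-39568529) is known to hydroxylate retinoic acid. It was at 2.68 FPKM under PBS and 3.87 after ASNase in WT, 2.68 and 4.65 in Gcn2-/- and 100.2 and 53.0 in Atf4-/- livers. Under PBS it was higher in Atf4-/- (33.7 to 167) than in WT livers (1.09 to 4.27), a difference of 5.17 on the log2 scale and 37.4-fold in FPKM. Cyp2c38 (minus strand, chr19:39389556-39463075) was at 33.5 FPKM under PBS and 32.1 after ASNase in WT, 29.2 and 17.4 in Gcn2-/- and 29.0 and 8.71 in Atf4-/- livers. Its PBS intervals overlapped in the 3 strains, and it fell after ASNase in Atf4-/- livers (-1.72, intervals 14.7 to 43.2 and 4.70 to 12.7). The longest run without a difference between their coding sequences was 98 bases, and 0 of the 100-base windows of either transcript occurred in another gene. The coding stretch of 100 bases in which they differ most is shown because the Cyp2c39 value rests on such differences. The 14 differing positions are in capitals, and coordinates are on GRCm38.
Cyp2c38, minus strand, chr19:39460313-39460412: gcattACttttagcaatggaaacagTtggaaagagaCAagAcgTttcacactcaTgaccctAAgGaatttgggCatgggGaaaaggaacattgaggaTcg
Cyp2c39, plus strand, chr19:39513500-39513599: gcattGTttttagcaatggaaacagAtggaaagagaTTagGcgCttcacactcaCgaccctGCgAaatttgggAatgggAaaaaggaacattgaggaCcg

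In the Cyp2a subfamily, Cyp2a5 is known as coumarin 7-hydroxylase and Cyp2a4 as a steroid 15-alpha-hydroxylase that is higher in female liver. Their coding sequences were 98.4% identical, with 23 differences in 1482 bases and a longest run without a difference of 216 bases. The most divergent 100 bases within 1 exon, shown to make this plain, differ at 4 positions (in capitals, plus strand, GRCm38).
Cyp2a4, chr7:26307682-26307781: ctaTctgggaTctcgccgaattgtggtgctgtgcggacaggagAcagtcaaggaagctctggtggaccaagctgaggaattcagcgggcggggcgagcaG
Cyp2a5, chr7:26835827-26835926: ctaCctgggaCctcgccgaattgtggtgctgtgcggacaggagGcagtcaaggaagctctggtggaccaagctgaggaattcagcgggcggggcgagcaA

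Cyp2a4 was at 312 FPKM under PBS and 218 after ASNase in WT, 756 and 97.7 in Gcn2-/- and 184 and 18.2 in Atf4-/- livers. It fell in Gcn2-/- livers (-2.95, intervals 198 to 1314 and 32.6 to 163), where its PBS value was the highest of the 6. In Atf4-/- livers the difference was -3.33, with intervals 10.7 to 357 and 5.39 to 30.9 that overlapped. Cyp2a5 was at 842 FPKM under PBS and 1365 after ASNase in WT, 973 and 231 in Gcn2-/- and 801 and 113 in Atf4-/- livers. All 6 of its intervals were wide, with lower bounds of 0 in both WT groups and in Gcn2-/- PBS, and it was not called. The sum of both genes was 1729 and 329 FPKM in Gcn2-/- and 985 and 132 in Atf4-/- livers under PBS and after ASNase, with overlapping intervals, so the call of Cyp2a4 in Gcn2-/- livers was lost in the sum.

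Cyp2a12, which is known to hydroxylate bile acids, and Cyp2a22 shared 97.0% of their coding bases. Cyp2a12 was at 369 FPKM under PBS and 306 after ASNase in WT, 352 and 329 in Gcn2-/- and 400.1 and 333 in Atf4-/- livers, one of the steadiest members. Cyp2a22 (minus strand, chr7:26931631-26939384) was at 17.7 FPKM under PBS and 15.9 after ASNase in WT, 12.9 and 4.88 in Gcn2-/- and 0.550 and 7.44 in Atf4-/- livers. Its Atf4-/- PBS interval (0.139 to 0.961) lay below those of the other 5 groups, which gave 2 calls from the same low value: lower than WT under PBS (-4.77) and higher after ASNase in Atf4-/- livers (3.54). After ASNase its level in Atf4-/- (3.02 to 11.9) overlapped that in WT livers (6.28 to 25.5). In the sum with Cyp2a12, of which it is a small part, neither call remained. Of its transcript windows 6.36% were shared with another gene.

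The Cyp2b genes split in direction. Cyp2b10 (plus strand, chr7:25897620-25926624), the classical target of the receptor CAR and of phenobarbital, was at 15.3 FPKM under PBS and 16.6 after ASNase in WT, 14.4 and 35.5 in Gcn2-/- and 2.63 and 49.1 in Atf4-/- livers. It was lower in Atf4-/- than in WT livers under PBS (-2.50, intervals 0.867 to 4.39 and 7.33 to 23.3) and rose after ASNase in Atf4-/- livers (4.17, interval 23.0 to 75.2). Both calls use the same Atf4-/- PBS value. In Gcn2-/- livers the difference after ASNase was 1.30, with intervals 5.69 to 23.1 and 17.7 to 53.3 that overlapped. No 100-base window of its transcript occurred in another gene. Cyp2b13, a steroid-metabolising gene of female liver, was at 73.7 FPKM under PBS and 20.3 after ASNase in WT, 24.6 and 16.6 in Gcn2-/- and 58.0 and 1.66 in Atf4-/- livers and fell in Atf4-/- livers (-5.04, intervals 11.9 to 104 and 0.293 to 3.03). Its paralog Cyp2b9 was at 149.9 FPKM under PBS and 94.0 after ASNase in WT, 141 and 59.6 in Gcn2-/- and 93.9 and 14.2 in Atf4-/- livers, and its Atf4-/- intervals (14.6 to 173 and 5.23 to 23.2) overlapped. The sum of Cyp2b9 and Cyp2b13 passed the rule in Atf4-/- livers (-3.25). Cyp2b19 and Cyp2b23 were at or near 0 in all groups.

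**Figure D4:**
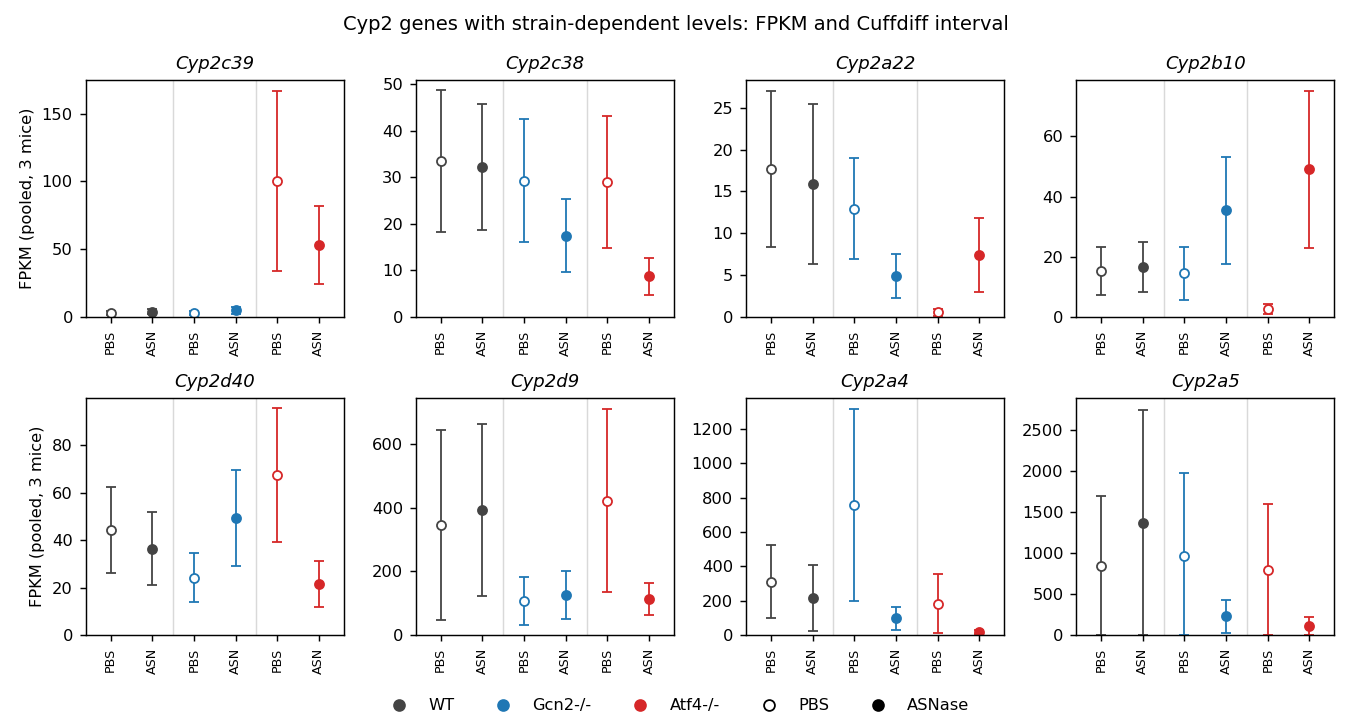
FPKM of 8 Cyp2 genes shown for their patterns over the strains, with open points for PBS and filled points for ASNase. Under PBS only Cyp2c39, Cyp2a22 and Cyp2b10 of them were called against WT, in Atf4-/- livers. Cyp2a5 and Cyp2d9 were called in no comparison. Points are single values pooled from 3 mice and bars are Cuffdiff intervals. Cyp2c39 is high in the 2 Atf4-/- groups alone, Cyp2a22 and Cyp2b10 are lowest in Atf4-/- PBS, and Cyp2d40 is higher after ASNase than under PBS in Gcn2-/- and lower in Atf4-/- livers.

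Within Cyp2d, the subfamily of the human drug-metabolising enzyme CYP2D6, Cyp2d40 (minus strand, chr15:82759833-82764183) was at 44.3 FPKM under PBS and 36.5 after ASNase in WT, 24.3 and 49.5 in Gcn2-/- and 67.4 and 21.6 in Atf4-/- livers. It fell after ASNase in Atf4-/- livers (-1.64, intervals 39.2 to 95.6 and 12.0 to 31.1), while in Gcn2-/- livers the difference was 1.02 with intervals 14.1 to 34.4 and 29.3 to 69.6. Cyp2d9, a testosterone 16-alpha-hydroxylase of male liver, was at 345 FPKM under PBS and 393 after ASNase in WT, 108 and 125 in Gcn2-/- and 423 and 113 in Atf4-/- livers. Its values were low in both Gcn2-/- groups and in Atf4-/- ASNase, and no comparison was called. Cyp2d10 was at 336 FPKM under PBS and 278 after ASNase in WT, 282 and 203 in Gcn2-/- and 343 and 144 in Atf4-/- livers, with 14.8% of its windows shared. Cyp2d22 and Cyp2d26 varied least, from 47.6 to 75.1 and from 323 to 522 FPKM over the 6 groups. The 8 Cyp2d genes lie 2.11 to 2.53 Mb from Atf4 on chromosome 15, so that sequence carried along with the deleted allele could differ there between Atf4-/- and WT mice, and its part in the Cyp2d values was not tested.

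Cyp2e1 (plus strand, chr7:140763739-140774987) oxidises ethanol and acetaminophen and is expressed around the central vein. It was at 3927 FPKM under PBS and 4036 after ASNase in WT, 3369 and 2012 in Gcn2-/- and 4522 and 1149.9 in Atf4-/- livers. It was the highest member in every group, and its Atf4-/- intervals (0 to 9621 and 361 to 1939) overlapped, so that a difference of -1.98 was not called. Cyp2f2 (plus strand, chr7:27119909-27133660), which activates naphthalene and is expressed in lung Club cells and in periportal hepatocytes, was at 526 FPKM under PBS and 460.4 after ASNase in WT, 466 and 149.6 in Gcn2-/- and 506 and 29.2 in Atf4-/- livers. The 4 values outside the knockout ASNase groups lay between 460.4 and 526, and it fell in Atf4-/- livers (-4.11, intervals 200.5 to 812 and 14.3 to 44.1). In Gcn2-/- livers the difference was -1.64 with overlapping intervals (195 to 737 and 77.9 to 221). Scgb1a1, the secretory marker of Club cells, was at 104 FPKM in WT PBS and 0 in Atf4-/- PBS. Cyp2f2 was at 526 (210 to 843) and 506 (200.5 to 812) there, and the part of lung tissue in its values was not tested.

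Of the Cyp2j genes, which include epoxygenases of arachidonic acid, Cyp2j5 was at 285 FPKM under PBS and 250.0 after ASNase in WT, 289 and 137 in Gcn2-/- and 278 and 103 in Atf4-/- livers, Cyp2j6 was at 11.8 to 19.6 and Cyp2j9 at 2.16 to 4.75 FPKM over the groups. None of the 3 was called. Cyp2r1, which 25-hydroxylates vitamin D, was at 13.4 FPKM under PBS and 9.38 after ASNase in WT, 12.7 and 10.7 in Gcn2-/- and 11.9 and 5.33 in Atf4-/- livers, with overlapping intervals throughout. Cyp2u1, a fatty acid hydroxylase, fell in Atf4-/- livers from 4.34 (1.96 to 6.72) to 1.14 FPKM (0.399 to 1.88, -1.84), a call that was lost with a pseudocount of 1. Among the low members, Cyp2g1 was at 1.83 FPKM under PBS and 1.37 after ASNase in WT, 1.85 and 0.172 in Gcn2-/- and 2.57 and 0.207 in Atf4-/- livers, and its intervals did not overlap between PBS and ASNase in either knockout although it did not reach an FPKM of 3. Cyp2s1 was highest in WT ASNase at 1.35 FPKM. The other 13 low members stayed at or below 0.302 FPKM in every group.

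Under PBS, the knockouts were compared with WT, and both comparisons share the WT PBS values. In Gcn2-/- livers 0 of 31 members were called, against 1.04% of 8920 genes, so the count lies near that share. The median difference was -0.13 beside 0.05 over all genes. Cyp2d9 (-1.68) and Cyp2b13 (-1.58) exceeded the fold limit on the lower side with overlapping intervals, 2 of 31 beside 2.03% of all genes. Both groups of this comparison had 1 male of 3. In Atf4-/- livers 4 of 32 members were called, against 1.12% of 9039 genes. Cyp2c39 was higher, and Cyp2a22, Cyp2b10 and Cyp2c55 were lower (-1.97 for Cyp2c55, intervals 0.822 to 3.39 and 4.70 to 12.3). The median of the 32 members was -0.10 beside 0.0033 over all genes. Here Atf4-/- PBS had 2 males of 3 and WT PBS had 1, and the part of sex was not tested. Of the 11 female-biased genes outside the family, 3 P450 genes of the Cyp3a family were called higher in Atf4-/- PBS than in WT PBS, Cyp3a16 (72.2 against 0.322 FPKM), Cyp3a41a (20.8 against 1.09) and Cyp3a44 (19.3 against 2.96). Hao2 was called lower (-2.71), and 8 of the 11 values were above 0. All 6 expressed female-biased Cyp2 members were below 0 in this comparison (median -0.72), of which Cyp2b10 alone was called.

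**Figure D5:**
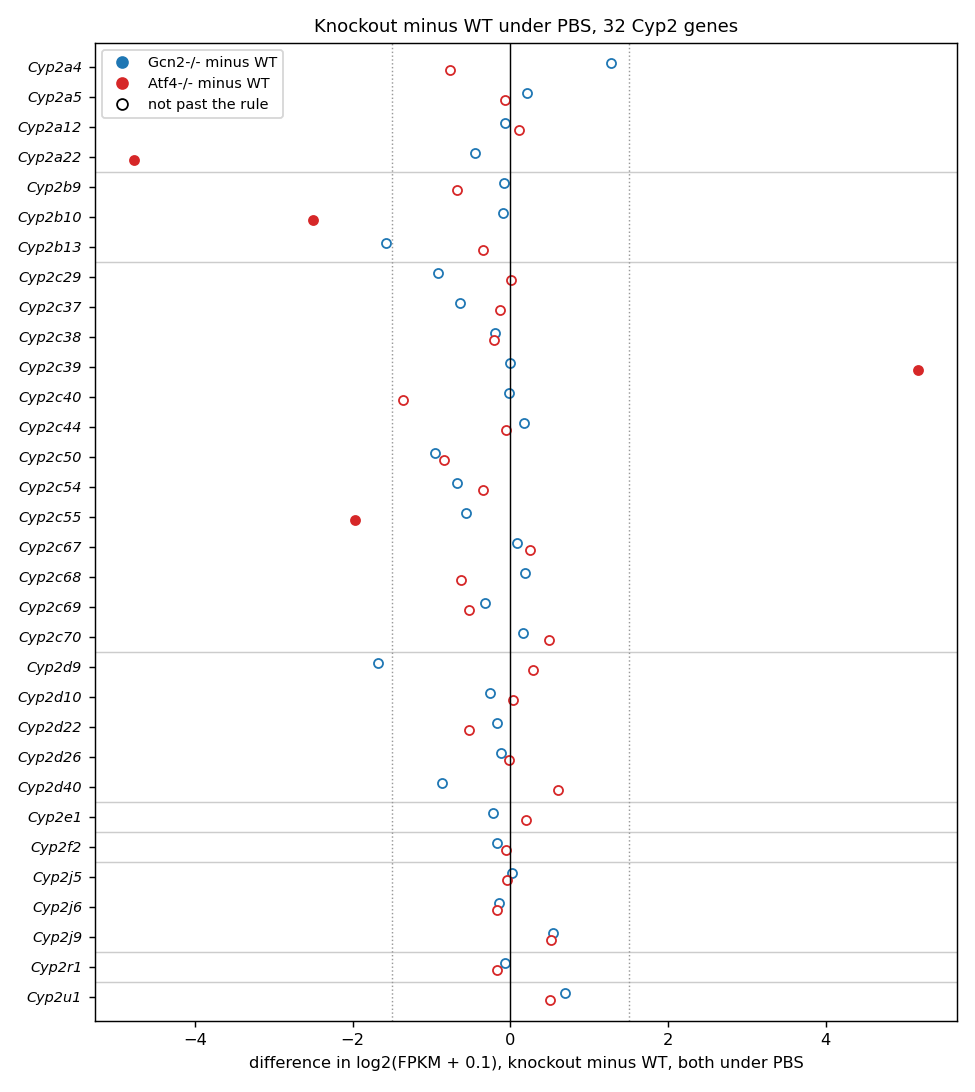
Difference in log2(FPKM + 0.1) between each knockout and WT under PBS for the 32 Cyp2 genes with an FPKM over 3 in any group. Filled points passed the calling rule and dotted lines mark a difference of 1.5. Of the Atf4-/- points 4 are filled, Cyp2c39 on the higher side and Cyp2a22, Cyp2b10 and Cyp2c55 on the lower side, and no Gcn2-/- point is filled.

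The responses to ASNase were then compared between strains, gene by gene. Responses were said to differ when 2 log2 changes differed by over 1.5 and by more than a combined error, without a test. That error was the root of the summed squared log2 distances from each of the 4 values to its upper bound. The lower side of the intervals, which is wider on the log2 scale, was left out. Cyp2a5, Cyp2c40 and Cyp2e1 passed in a comparison with WT although lower bounds among their values were 0, so the intervals did not resolve their differences. Gcn2-/- differed from WT for 6 of 32 members, all with the more negative change in Gcn2-/-, against 5.79% of 8650 genes in either direction. They were Cyp2c55 (-3.67), Cyp2a5 (-2.77), Cyp2c40 (-2.70), Cyp2c69 (-2.53), Cyp2a4 (-2.43) and Cyp2c44 (-2.23). Atf4-/- differed from WT for 17 of 31 members, 15 of them more negative in Atf4-/-, against 8.85% of 8770 genes. The largest were Cyp2c69 (-4.76), Cyp2c44 (-4.16), Cyp2b10 (4.05), Cyp2c67 (-3.92) and Cyp2f2 (-3.92). These 2 comparisons share the WT values.

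Between the 2 knockouts, whose responses share no samples, 10 of 31 members differed, against 5.14% of 8911 genes. In Atf4-/- livers 8 were more negative (Cyp2b13, Cyp2c39, Cyp2c44, Cyp2c67, Cyp2c69, Cyp2d9, Cyp2d40 and Cyp2f2), with differences of -2.12 for Cyp2d9, -1.69 for Cyp2c39 and -4.48 for Cyp2b13 on the log2 scale, and Cyp2a22 and Cyp2b10 were more positive. Over the 32 members the changes in the 2 knockouts had a Pearson correlation of 0.64 and a Spearman correlation of 0.64, across genes that share sequence and libraries and are not independent replicates. Cyp2c69, Cyp2c40, Cyp2c44, Cyp2a4, Cyp2a5 and Cyp2c55 had differences below -2 in both knockouts, and 25 members were below 0 in both.

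The sequences upstream of the RefSeq starts were read for 28 of the 32 members (GRCm38.p6; no entry was matched for Cyp2c44, Cyp2c54, Cyp2d22 and Cyp2u1), using the 250 bases before the start. The 3 motifs searched, on both strands, were chosen with the values and some of these sequences in view. CAAAGTCC, part of a site of the type bound by HNF4A, a hepatocyte transcription factor known to act on Cyp2 genes, was found in 7 of the 28 members and in 1.22% of the 27025 genes with such a sequence. TATAAA was found in 15 of 28 members and in 13.0% of all genes. TGATGNAA, the core of the element to which ATF4 binds with C/EBP proteins, was found in 0 of 28 members and in 3.53% of all genes, which says nothing of sequence outside the window. The 7 stretches of 60 bases with CAAAGTCC, in capitals, are shown because they are all the matches among the members.
Cyp2c40, minus strand, chr19:39812826-39812885: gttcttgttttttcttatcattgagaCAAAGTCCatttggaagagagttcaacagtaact
Cyp2c67, minus strand, chr19:39649134-39649193: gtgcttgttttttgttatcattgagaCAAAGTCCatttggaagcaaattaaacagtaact
Cyp2c68, minus strand, chr19:39741145-39741204: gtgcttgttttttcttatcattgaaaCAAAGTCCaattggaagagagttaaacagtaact
Cyp2c69, minus strand, chr19:39886811-39886870: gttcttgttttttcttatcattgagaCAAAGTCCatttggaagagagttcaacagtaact
Cyp2c70, minus strand, chr19:40187317-40187376: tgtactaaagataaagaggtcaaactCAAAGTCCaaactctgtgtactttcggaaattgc
Cyp2a4, plus strand, chr7:26307111-26307170: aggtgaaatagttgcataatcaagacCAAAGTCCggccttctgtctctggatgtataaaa
Cyp2a5, plus strand, chr7:26835257-26835316: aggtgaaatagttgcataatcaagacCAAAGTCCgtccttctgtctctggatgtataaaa

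The log2 differences after ASNase in Atf4-/- livers were -4.96, -3.73, -1.98, -6.81, 0.26, -3.33 and -2.82 in the order of these sequences, of which those of Cyp2c67, Cyp2c68 and Cyp2c69 passed the rule. Cyp2c40 and Cyp2c69 have the same 60 bases here, and the matching stretches of Cyp2a4 and Cyp2a5 are likewise near copies, so the 7 matches come from fewer origins. Hnf4a itself was at 149 and 145 FPKM in Gcn2-/- and 165 and 213 in Atf4-/- livers under PBS and after ASNase.

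Other genes of the pathway were read from lists. Of 22 transcription factors known to act on Cyp2 genes, 0 were called after ASNase in WT and 1, Nr0b2, fell in each knockout. Of all genes 0.881% were called in WT livers. In Gcn2-/- livers 2.13% were called lower and in Atf4-/- livers 4.63%, so the counts of the list lie near these shares. Cebpb, on this list, was not called here, while the authors reported it as significantly elevated by Cuffdiff q value after ASNase in Gcn2-/- livers only. Nr0b2, the nuclear repressor SHP, was at 24.4 FPKM under PBS and 16.0 after ASNase in WT, 32.3 and 11.1 in Gcn2-/- and 24.3 and 1.03 in Atf4-/- livers. The median difference of the list was -0.19 in Gcn2-/- and -0.58 in Atf4-/- livers. Nr1i3, which encodes CAR, was at 92.3 FPKM under PBS and 106 after ASNase in WT, 72.8 and 79.7 in Gcn2-/- and 122 and 50.3 in Atf4-/- livers and was not called. Ppara, the fatty acid receptor, was at 43.8 (9.53 to 78.1) and 8.52 (1.68 to 15.4) in Atf4-/- livers, with intervals that overlapped.

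Electron and heme supply was represented by 7 measured genes of the 8 listed. Cyb5a, a cytochrome b5 gene of the list, was not found by name, so its level was not read. Por was at 186 FPKM under PBS and 298 after ASNase in WT, 199 and 239 in Gcn2-/- and 279.8 and 363 in Atf4-/- livers and was not called in any comparison. Cyb5b, a different cytochrome b5 gene, fell in Atf4-/- livers from 99.0 to 30.3 FPKM (-1.71), which does not stand for Cyb5a. Hmox1, which breaks down heme, rose in Gcn2-/- (1.62) and in Atf4-/- livers (1.91), to 40.3 and 55.3 FPKM. The other 4 (Alas1, Cyb5r3, Fech and Pgrmc1) were not called and had differences of -1.47 to -0.63 in Gcn2-/- and -1.37 to -0.77 in Atf4-/- livers.

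Sex-biased genes moved beside the Cyp2 genes in the knockouts. Of 7 female-biased Cyp2 members 6 were expressed, and 2 (Cyp2a4 and Cyp2c69) fell in Gcn2-/- and 2 (Cyp2b13 and Cyp2c69) in Atf4-/- livers, where Cyp2b10 rose. Of the male-biased liver genes outside the family 6 of 12 eligible fell in Gcn2-/- and 9 of 14 in Atf4-/- livers, beside 2.13% and 4.63% of all genes, for example Slco1a1, a transporter, from 124 to 0.945 FPKM in Atf4-/-. Of the female-biased ones 2 of 8 and 3 of 10 fell. The male-linked transcript Ddx3y was level within each knockout (6.20 and 5.88 FPKM in Gcn2-/-, 11.4 and 14.2 in Atf4-/-) and differed in WT (5.62 and 11.6), as the sexes on the labels do. The 24 eligible members outside the sex-biased lists gave 10 calls in Atf4-/- livers (9 lower), beside 7.37% of all genes, and 25 such members gave 2 in Gcn2-/- livers, beside 3.69%.

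Part of the zonation genes outside the family differed as well. Of 12 genes of pericentral hepatocytes 10 were eligible, and 4 of these fell in Atf4-/- livers (Cyp1a2, Gulo, Lect2 and Rgn; median -2.48) and 1, Cyp1a2, in Gcn2-/- livers. Of 12 periportal genes 0 were called in any comparison (median -0.48 in Atf4-/- livers). Among all genes 4.63% were called lower in Atf4-/- and 2.13% in Gcn2-/- livers after ASNase, so 0 of 12 lies near these shares. Of the acute phase genes, which the liver makes in inflammation, part passed the rule as higher after ASNase in both knockouts. Of 15 eligible genes 5 were called higher in Gcn2-/- and 5 of 15 in Atf4-/- livers, while 0 of 19 were called in WT. Steap4 was at 41.1 and 624 FPKM in Gcn2-/- and 59.1 and 490.0 in Atf4-/- livers. Of the list 13 exceeded an FPKM of 3 with an estimate in all groups. Their median difference after ASNase was 2.94 in Gcn2-/-, 2.95 in Atf4-/- and -0.29 in WT livers. Of these 13, 13, 12 and 3 were above 0 in turn. Of all genes 3.69% were called in either direction after ASNase in Gcn2-/-, 7.37% in Atf4-/- and 0.881% in WT livers. Under PBS 2 of 19 acute phase genes were called higher than in WT in Gcn2-/- livers (Orm2 and Saa3). In Atf4-/- livers 3 of 20 were called higher (Lcn2, Orm2 and Orm3), and the medians were 0.80 and 0.98. Beside them 1.04% and 1.12% of all genes were called in either direction. The part of the acute phase genes in the Cyp2 differences was not tested. Of the 48 P450 genes outside the family 30 exceeded an FPKM of 3, with medians of -0.077, -1.07 and -1.64 after ASNase (WT, Gcn2-/- and Atf4-/- in turn), beside -0.19, -1.01 and -1.78 for Cyp2. Of those eligible, 8 of 27 were called lower and 2 higher in Gcn2-/- livers, where 4 of 32 Cyp2 members were lower and 0 higher, and 12 of 30 were called lower and 2 higher in Atf4-/- livers, where 11 of 31 Cyp2 members were lower and 2 higher. These shares, beside 3.69% and 7.37% of all genes called in either direction, were not tested against each other.

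The width of the Cuffdiff intervals decided which large differences were called. The median distance from a member's value to its upper bound, over the 6 groups, was 41.4% of the value for Cyp2j6 and 101% for Cyp2c40, with a median of 52.9% over the 32 members beside 54.2% over all genes above an FPKM of 3. Cyp2a5 (101%) and Cyp2e1 (96.8%) were also wide, the first with 14.4% and the second with 1.5% of windows shared with another gene. Across the 32 members the Spearman correlation of width with the shared percentage was 0.35 and with level 0.20, values over genes that are not independent. A large difference that was not called, as for Cyp2c40, Cyp2a5 and Cyp2e1, was therefore not resolved by these intervals. No absence of change can be read from it, and the q values of the authors were not used here.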

How the data were processed

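RNA-Seq of 18 mouse livers was analysed in 6 groups of 3, formed from the sample labels. The authors prepared poly-A libraries, sequenced 100-base single-end reads, mapped these to the mm10 genome (TopHat, Bowtie), built transcripts (Cufflinks, Cuffmerge) and quantified genes by Cuffdiff. The FPKM values the authors deposited, with interval bounds and a status, are 1 per gene and group, pooled from 3 libraries. Counts, depth and values per library are not part of this table, and the precision of a value is its interval.

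Groups were compared on log2(FPKM + 0.1) over all genes by the rule given in the text. The linear models planned for single libraries could not be fitted. Every member over an FPKM of 3 in any group is named, the others are given by subfamily or range, and genes outside the family come from lists of known P450 partners, regulators, sex-biased, zonal and acute phase genes and tissue markers. The members and lists were chosen with earlier results of these data known. Coding sequences and positions came from GENCODE M21, and upstream sequences from RefSeq (GRCm38.p6). Reads that match several paralogs were split by the authors' estimation. The rule was run on simulated tables with known changes far past the fold limit and relative interval widths copied from the comparison group. These tables do not bear on changes near the limit or on variation between mice. Python 3.11.15, pandas 2.3.3, SciPy 1.17.1 and Biopython 1.88 were used. Alternatives were other pseudocounts, FPKM and fold limits, interval conditions and median-ratio scaling. 1 gene of the pericentral list is not reported here and was left out of that list.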

Additional observations from a re-analysis of the deposited data

Results flagged for a closer look

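The ASNase responses of 2 members went in opposite directions in the 2 knockouts, each by more than 1 on the log2 scale, and the difference was not tested because no values of single mice were used. Cyp2a22 went from 12.9 to 4.88 FPKM in Gcn2-/- and from 0.550 to 7.44 in Atf4-/- livers, a difference between the responses of 4.93 on the log2 scale. Cyp2d40 went from 24.3 to 49.5 FPKM in Gcn2-/- and from 67.4 to 21.6 in Atf4-/- livers, a difference of -2.67. In Gcn2-/- livers neither change passed the calling rule (-1.39 for Cyp2a22 and 1.02 for Cyp2d40), and the intervals overlapped. The rise of Cyp2a22 in Atf4-/- livers rests on its low PBS value.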

How the results depend on the processing

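No paired analysis was possible because each group has 1 pooled value, and for the same reason leaving out a replicate was not run. The planned sum of paralogs by protein identity was not run, and coding identity was used in its place. Over 1280 values of single members under 8 alternatives 0 reversed, 19 gained and 5 lost a call. Without the condition on the intervals the members called were 2 in WT and 7 in Gcn2-/- livers after ASNase and 2 for Gcn2-/- against WT under PBS, and with a combined interval they were 2 in WT and 1 for Gcn2-/- against WT under PBS, in place of 0, 4 and 0. The next 3 alternatives were chosen after seeing the data. Without the sex-biased members 2 were called in Gcn2-/- livers. Among members with under 5% of shared windows 2 were called in Gcn2-/- and 5 in Atf4-/- livers. With close paralogs summed by coding identity 2 units were called in Gcn2-/- and 8 of 21 in Atf4-/- livers, and 2 for Atf4-/- against WT under PBS, where Cyp2a22 and Cyp2c39 were lost in their sums. Leaving out members or summing them also lowers the number counted, and in the sums of Cyp2a4 with Cyp2a5 and of the Cyp2c40 group in Gcn2-/- livers the summed intervals overlapped. With a fold limit of 1 the ASNase response differed between Gcn2-/- and WT for 11 members in place of 6. All other counts stayed within 1.5 times the reported one, and the medians moved by less than 0.585.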

Other observations

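Cyp2d37-ps, a Cyp2d gene named as a pseudogene and therefore not among the 47 members, was at 33.2 FPKM under PBS and 36.1 after ASNase in WT, 38.7 and 25.9 in Gcn2-/- and 50.9 and 8.72 in Atf4-/- livers. It was called lower after ASNase in Atf4-/- livers (-2.53 on the log2 scale). In WT PBS its level was below those of the 5 Cyp2d members that exceeded an FPKM of 3, of which Cyp2d40 was the lowest at 44.3 FPKM. The other names ending in -ps, Cyp2c53-ps and Cyp2j7-ps, did not exceed 0.367 FPKM in any group.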
